A study of Homo sapiens with 6 samples.

Results

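The CYRI proteins and the WAVE complex form a switch at the leading edge of a moving cell, and this account follows the mRNA of its 10 genes in Hs578T cells with and without knockdown of CCN3. The 10 genes were chosen by symbol (CYRIA, CYRIB, WASF1, WASF2, WASF3, CYFIP1, CYFIP2, NCKAP1, ABI1 and ABI2), and they were selected on results of this same knockdown, so their differences are given as a description and without a p-value. They are 10 of the 46427 genes in the count table, and 9 of them were among the 17419 genes with enough reads to be tested. WASF3 was the gene without reads.

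Hs578T is a human cell line of triple-negative breast cancer, a type that lacks the estrogen and progesterone receptors and has no amplified HER2. Poly(A) RNA was sequenced from 3 libraries of Hs578T cells that carried a retroviral control shRNA (shCTRL) and from 3 libraries of cells that carried a retroviral shRNA against CCN3 (shCCN3, genotype CCN3 KD), described as independent biological replicates. Cells of both groups were grown in DMEM with fetal bovine serum and were puromycin-selected after transduction with pSUPER vectors, and CCN3, a secreted matricellular protein, was targeted by 1 shRNA. Whether the 3 libraries of a group came from separate transductions or from 1 selected line is not given in the sources used here. If they came from 1 line each, the p-values measure only the spread between libraries of a line, and other differences between the lines cannot be told apart from the knockdown. In either case, with 1 targeting shRNA, other effects of that shRNA cannot be told apart from those of lower CCN3.

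As background, Rac GTPases signal at the plasma membrane, and active Rac binds a CYFIP subunit of the WAVE complex. The complex also holds an ABI adaptor, the scaffold NCKAP1, the small subunit BRK1 and a WAVE protein encoded by a WASF gene. Once released, the WAVE protein activates the Arp2/3 complex, which nucleates branched actin filaments and so drives lamellipodia. The CYRI proteins bind active Rac through a domain related to that of the CYFIP subunits, and they restrain the WAVE complex. The study followed migration and invasion of CCN3 knockdown cells, to which branched actin is relevant.

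Since most subunits come from sets of related genes, the sequences below show how far the reads of related genes can be told apart. The coding sequences of CYRIA and CYRIB were identical at 73.4% of their aligned bases, and their longest identical run was 15 bases. CYFIP1 and CYFIP2 were the closest pair, at 79.3% identity and a longest identical run of 36 bases. No pair shared any stretch of 50 bases. Each line gives, from the GENCODE 29 annotation, the coding bases around the longest run, 5′ to 3′ along the mRNA, with the run shared with the related gene in capitals.
CYRIA: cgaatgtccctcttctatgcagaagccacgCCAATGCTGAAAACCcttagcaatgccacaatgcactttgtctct
CYFIP1: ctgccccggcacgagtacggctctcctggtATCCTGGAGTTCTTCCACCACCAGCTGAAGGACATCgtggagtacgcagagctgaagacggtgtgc
CYFIP2: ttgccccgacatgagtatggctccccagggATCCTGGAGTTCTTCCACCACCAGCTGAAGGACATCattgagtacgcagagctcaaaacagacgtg

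The CYRIA window lies at chr2:16561164-16561238 on the minus strand of GRCh38, within a single coding exon. The CYFIP1 window lies at chr15:22879976-22881873 on the minus strand and the CYFIP2 window at chr5:157360345-157361535 on the plus strand, and each spans 2 coding exons, with the intron left out of the printed run. ABI1 and ABI2 were identical at 72.0% of aligned coding bases and WASF1 and WASF2 at 68.6%.

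Libraries held between 56159110 and 68393177 counted reads. Levels are given as CPM, counts scaled to a common library size with TMM factors. The 95% intervals of log2 fold changes come from the edgeR fit and include the spread between libraries, while the level that a count of 0 allows covers counting error only. CCN3 itself had 103, 102 and 98.1 CPM in the shCTRL libraries and 47.4, 47.2 and 46.5 CPM in the shCCN3 libraries. VIM and CD44, which mark the mesenchymal state of Hs578T, were high, and ESR1 and CDH1 were at or near 0. On average VIM had 7778 CPM in shCTRL and 7064 CPM in shCCN3, and CD44 had 2158 and 1815 CPM. Both were lower in shCCN3 without overlap between groups. CD44 passed (log2 fold change -0.25, edgeR adjusted p = 0.00429) and VIM did not (log2 fold change -0.14, edgeR adjusted p = 0.0961). Of the other markers taken as low in this line, PGR was detected at 2.86 CPM in shCTRL and 3.80 CPM in shCCN3 on average, and ERBB2, which encodes HER2, was expressed at 77.9 and 78.2 CPM. Of the blood cell markers reported here, CD3E had 0 reads in all 6 libraries and PTPRC stayed between 0 and 0.203 CPM, while CD14 lay between 0.306 and 0.780 CPM. As RNA was measured in bulk, fewer cells expressing a gene and less RNA per cell cannot be told apart.

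CYRIA showed the widest gap of the 10 genes. CYRIA encodes CYRI-A, the less studied of the CYRI proteins, and was known as FAM49A. It was measured at 2.75, 3.17 and 3.13 CPM in the shCTRL libraries and at 40.3, 39.6 and 41.8 CPM in the shCCN3 libraries. All 3 shCCN3 libraries were thus far above all 3 shCTRL libraries, and within each group the libraries lay close together. The means were 3.02 ± 0.23 and 40.6 ± 1.14 CPM (SD, n = 3 each), a 13.4-fold higher level in shCCN3. On the log2 scale the difference was 3.75 with a standard error of 0.086 and a 95% interval from 3.55 to 3.94. The low group rests on 189, 199 and 210 reads and the high group on 2776, 2199 and 2674 reads. Among all genes tested, CYRIA ranked 118 from the highest log2 fold change, and 1.05% of genes were as far from 0.

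CYRIB, formerly FAM49B, encodes CYRI-B, the CYRI protein best described as a brake on Rac-driven WAVE activity. Its level was 91.5, 91.0 and 84.8 CPM in shCTRL and 120, 114 and 119 CPM in shCCN3. The groups did not overlap, but the gap was small beside that of CYRIA. Means were 89.1 ± 3.73 and 117 ± 2.95 CPM (SD, n = 3 each), a ratio of 1.32 and a log2 fold change of 0.40 (standard error 0.058, 95% interval 0.27 to 0.53). A difference at least this far from 0 was seen in 33.0% of all genes tested. The 10 nearest tested genes around CYRIB had a median log2 fold change of 0.02.

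**Figure D1:**
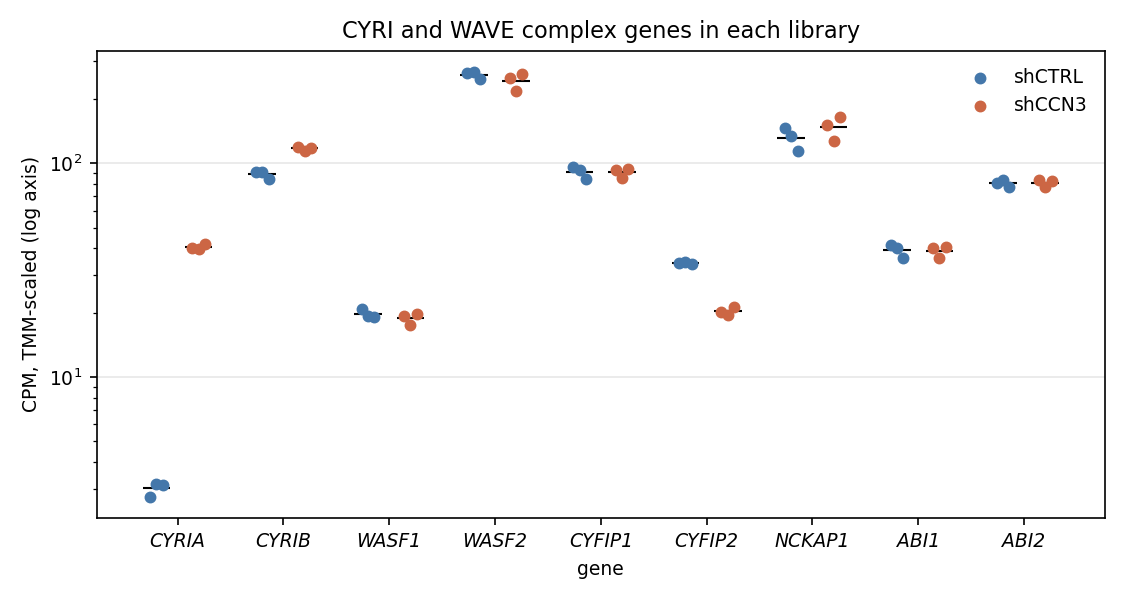
Level of each member in every library (TMM-scaled CPM on a log axis), shCTRL and shCCN3 side by side, with a point per library and a bar at each group's mean. WASF3 had 0 reads and is left out. CYRIA moves from about 3.02 to 40.6 CPM, CYRIB is higher and CYFIP2 lower without overlap, and the points of the other genes overlap between groups.

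The CYFIP subunits bind active Rac and carry its signal into the complex. CYFIP1, also called SRA1, had 96.1, 93.3 and 84.1 CPM in shCTRL and 93.1, 85.3 and 94.0 CPM in shCCN3, so the groups overlapped. Its log2 fold change was -0.01 with a 95% interval from -0.17 to 0.16. CYFIP2, also called PIR121, had 34.0, 34.5 and 33.9 CPM in shCTRL and 20.2, 19.4 and 21.3 CPM in shCCN3. Every shCCN3 library was below every shCTRL library. The means of CYFIP2 were 34.1 ± 0.284 and 20.3 ± 0.921 CPM (SD, n = 3 each), a ratio of 0.594. This gave a log2 fold change of -0.75 (standard error 0.066, 95% interval -0.90 to -0.60), and 15.2% of all genes tested were at least as far from 0. CYFIP2 lies at chr5:157266123-157395594 on GRCh38, where its 10 nearest tested genes had a median log2 fold change of 0.18.

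WAVE proteins carry the region that binds actin and Arp2/3. WASF2, which encodes WAVE2, the form found in most tissues, had 265, 268 and 247 CPM in shCTRL and 250, 219 and 262 CPM in shCCN3. WASF1, which encodes the brain-enriched WAVE1, had 20.9, 19.3 and 19.1 CPM in shCTRL and 19.4, 17.6 and 19.7 CPM in shCCN3. In both genes the groups overlapped. Their log2 fold changes were -0.09 (95% interval -0.27 to 0.08) for WASF2 and -0.07 (95% interval -0.24 to 0.11) for WASF1. WASF3 had 0 reads in all 6 libraries, which allows a level of up to 0.0435 to 0.054 CPM depending on the library.

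NCKAP1 is the scaffold on which the complex is built. It was measured at 146, 135 and 114 CPM in shCTRL and at 151, 127 and 165 CPM in shCCN3, the widest scatter relative to the mean among the genes without a gap between groups. Its log2 fold change of 0.17 had a 95% interval from -0.09 to 0.43, and it was 0.27 without shCCN3 replicate 2 and 0.07 without shCTRL replicate 3. The adaptors ABI1 and ABI2 link the complex to SH3 partners and to Abl kinases. ABI1 had 41.5, 40.0 and 36.0 CPM in shCTRL and 40.2, 36.1 and 40.7 CPM in shCCN3, a log2 fold change of -0.01 (95% interval -0.18 to 0.17). ABI2 had 81.3, 83.8 and 77.3 CPM in shCTRL and 83.2, 77.4 and 82.3 CPM in shCCN3, a log2 fold change of 0.00 (95% interval -0.14 to 0.14). For both adaptors the groups overlapped.

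Of the 9 members tested, 3 passed an adjusted p of 0.05 in edgeR's quasi-likelihood test, 2 higher and 1 lower in shCCN3. Over all genes tested 33.4% passed, 16.2% higher and 17.3% lower. CYRIA alone passed with a difference of at least 2-fold, against 8.1% of all genes. The groups did not overlap in 3 of 9 members and in 46.3% of all genes tested. Because the members were picked with this comparison in view, nothing is read from these counts. The median log2 fold change of the 9 members was -0.005, against 0.008 over all genes. For the 6 members that did not pass, the 95% intervals reached from -0.27 to 0.43 at the widest, and differences inside a gene's own interval are compatible with its libraries.

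**Figure D2:**
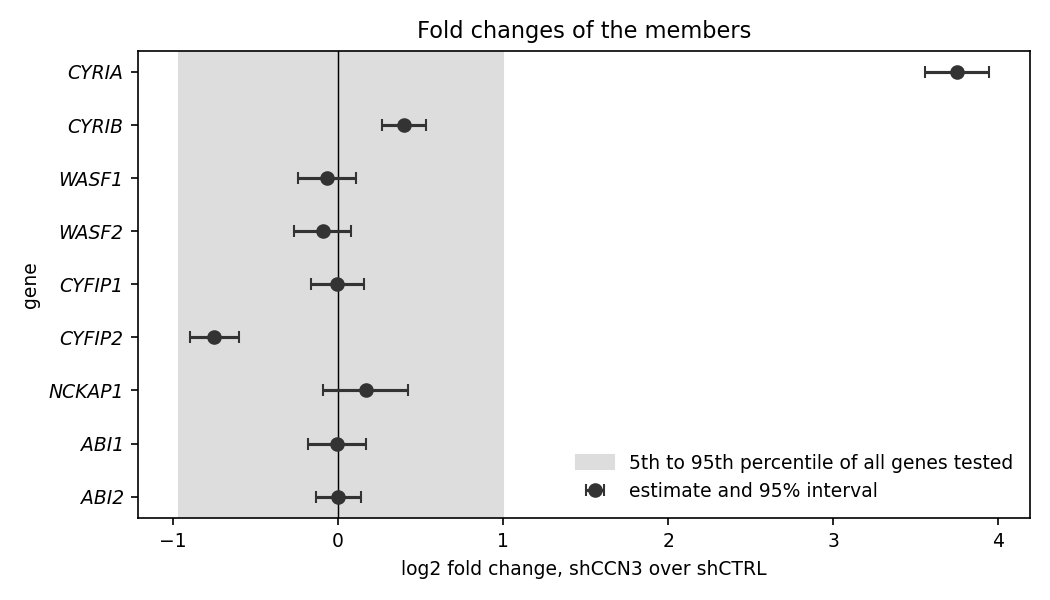
Log2 fold change, shCCN3 over shCTRL, of the 9 members tested, with bars for the 95% interval. The grey band runs from the 5th to the 95th percentile of all genes tested, -0.97 to 1.0. CYRIA stands at 3.75, CYRIB at 0.40 and CYFIP2 at -0.75, and the other 6 intervals include 0.

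Within a group the libraries moved together across the members. shCCN3 replicate 2 was the lowest library of its group in 9 of 9 members, as it was for 42.0% of all genes tested, and shCTRL replicate 3 was the lowest of its group in 8 of 9 members, as it was for 38.5% of all genes. The part of this shared offset in the members' differences was not tested. Over the 6 fits that each dropped a library, log2 fold changes lay between 3.69 and 3.79 for CYRIA, between 0.37 and 0.42 for CYRIB and between -0.79 and -0.72 for CYFIP2.

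To compare genes with each other, levels were divided by exon length and are CPM per kilobase. In shCTRL the order was WASF2 (45.8), CYRIB (9.76), ABI1 (9.29), CYFIP1 (8.75), WASF1 (6.06), NCKAP1 (5.84), ABI2 (3.46), CYFIP2 (3.25) and CYRIA (0.554). CYRIB and ABI1, ABI1 and CYFIP1, and WASF1 and NCKAP1 overlapped between libraries, and the other neighbours in this order did not. In shCCN3, CYRIA stood at 7.44 ± 0.21 CPM per kilobase (SD, n = 3), which moved it from place 9 to place 5, between CYFIP1 (8.72) and NCKAP1 (6.57), and its libraries overlapped with those of NCKAP1. WASF2 and CYRIB held the first places in both groups, also per kilobase of coding sequence, and CYRIA moved from place 9 to place 5 on that scale too. Places in the middle of the order depend on the length used. ABI2 stood at place 7 in shCTRL by exon length and at place 3 by coding length, since its annotated exons add up to 23.33 kilobases.

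The balance within each pair of related genes was then taken as the share of the pair's summed level per kilobase of exon. CYRIA made up 4.80%, 5.51% and 5.82% of the CYRI level in the shCTRL libraries and 36.1%, 36.8% and 37.2% in the shCCN3 libraries. Per kilobase of coding sequence, the CYRIA share was 3.29% ± 0.329 in shCTRL and 25.7% ± 0.458 in shCCN3 (SD, n = 3 each), so CYRIB remained the more abundant of the pair on both scales. Summed over both genes, the CYRI level was 10.3 ± 0.389 in shCTRL and 20.3 ± 0.477 CPM per kilobase of exon in shCCN3 (SD, n = 3 each), and 94.8 and 163 CPM per kilobase of coding sequence. Most of this gap on the exon scale is the CYRIA gap, from 0.554 to 7.44 CPM per kilobase.

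CYFIP2 made up 26.0%, 26.8% and 28.6% of the CYFIP level in shCTRL and 17.7%, 18.4% and 18.3% in shCCN3, and these shares did not overlap. The summed CYFIP level was 12.0 ± 0.615 and 10.7 ± 0.536 CPM per kilobase of exon (SD, n = 3 each). The other families kept close to one balance in both groups. ABI1 held 72.8% ± 0.927 of the ABI level in shCTRL and 72.7% ± 0.562 in shCCN3 (SD, n = 3 each), and WASF1 held 11.7% ± 0.489 and 11.9% ± 0.361 of the WASF level. By coding length the ABI1 share was 32.8% and 32.7%, so which ABI gene is the more abundant depends on the length chosen, while its likeness between groups does not.

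**Figure D3:**
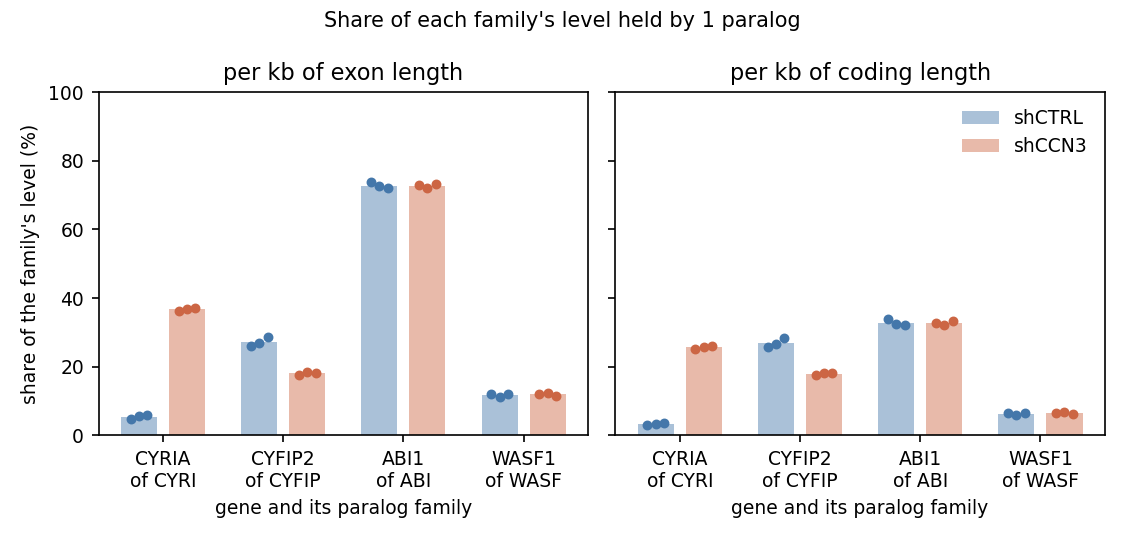
Share (%) of each family's summed level held by CYRIA, CYFIP2, ABI1 and WASF1, per kilobase of exon length (left) and of coding length (right). Bars are group means and points are libraries. The CYRIA share goes from 5.38% to 36.7% by exon length and the CYFIP2 share from 27.1% to 18.1%, while the ABI1 and WASF1 bars are level between groups.

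The chromosomes of Hs578T differed in their overall balance between the 2 groups, so each tested member was set beside its own chromosome. For chromosome 2, which carries CYRIA, the median over all tested genes was 0.01 on the log2 scale, and for the 10 genes nearest to CYRIA it was 0.13. Chromosome 5, which carries CYFIP2, had a median of 0.06. WASF1 sits on chromosome 6, whose median was 0.34, and its own value minus that median was -0.41. WASF2 lies on chromosome 1 (median -0.13), and the 10 genes around it had a median of -0.30. CYRIB lies on chromosome 8 (median 0.11), and its own value minus that median was 0.29. The medians were 0.02 for chromosome 15, which carries CYFIP1, and 0.03 for chromosome 10, which carries ABI1. NCKAP1 and ABI2 lie on chromosome 2, as CYRIA does. Overlapping annotation touches CYRIB (5 genes, among them the pseudogene RPL15P12 and MIR5194), CYFIP1 (NIPA2), CYFIP2 (FNDC9 and NIPAL4-DT) and ABI1 (3 genes, among them PDSS1), and also ABI2 (1 gene) and WASF3 (2 genes). The library kit marks strand, but the strand setting of the counting is not given in the sources used here, so reads of these neighbours could not be set apart.

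The 74 other genes of the route from Rac to branched actin were then examined in 8 lists, and for these the adjusted p-values are given. The lists, too, were drawn up with earlier results of these data known, so nothing is read from an excess of calls. Of the 66 genes with enough reads, 31 passed an adjusted p of 0.05 in edgeR's quasi-likelihood test, 10 higher and 21 lower in shCCN3. That is 47.0% of the genes tested, with 15.2% higher and 31.8% lower, beside the 33.4%, 16.2% and 17.3% over all genes. Several lists held genes of chromosome 7. All 7 pathway genes tested on chromosome 7 were lower, and the median over chromosome 7 as a whole was -0.43 on the log2 scale, with 59.0% of its 821 tested genes called lower. The part of that shift in the counts of each list was not tested. Off chromosome 7, 24 of 59 pathway genes passed (40.7%), 10 higher and 14 lower (23.7%), and their median was 0.02. The shares over all genes given above include chromosome 7, so they are not a like background for this count. The total was 20 without shCCN3 replicate 1 and also 20 without shCTRL replicate 2. The higher calls ranged from 3 without shCTRL replicate 2 to 18 without shCCN3 replicate 2. Over all genes, in place of 5825, the calls were 4484 without shCCN3 replicate 1 and 4181 without shCTRL replicate 2. Without shCCN3 replicate 2 they were 7229.

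**Figure D4:**
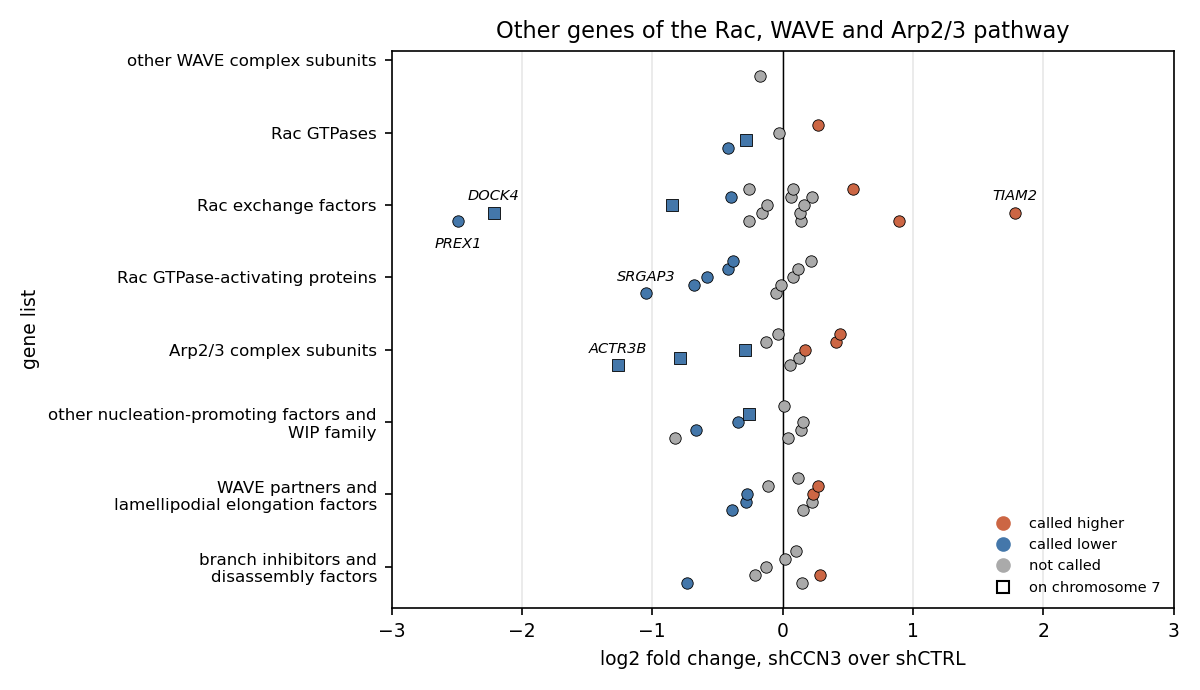
Log2 fold change, shCCN3 over shCTRL, of the 66 other pathway genes tested, by list. Colours mark genes called higher, called lower and not called, and squares lie on chromosome 7. PREX1 and DOCK4 lie farthest to the left and TIAM2 farthest to the right, and all 7 squares are called lower.

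Of the other WAVE subunits, BRK1 was the one with reads enough for a test. It had 224 ± 11.2 CPM in shCTRL and 198 ± 28.9 CPM in shCCN3 (SD, n = 3 each), and the log2 difference of -0.18 did not pass (edgeR adjusted p = 0.205). Without shCCN3 replicate 2, BRK1 was called, in a fit that called 7229 genes in place of 5825. NCKAP1L, the NCKAP1 relative of blood cells, had 2 reads in 1 library and 0 in the others, and ABI3 had 11 reads in 1 library and 0 in the others.

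Among the Rac GTPases, which switch the complex on, RAC1 was the most abundant. It had 325, 328 and 339 CPM in shCTRL and 262, 290 and 265 CPM in shCCN3, and it fell by 0.28 on the log2 scale (edgeR adjusted p = 0.00648). RAC1 lies on chromosome 7, whose median was -0.43. RAC3 fell from 37.2 ± 3.85 CPM in shCTRL to 27.8 ± 2.07 CPM in shCCN3 (SD, n = 3 each), or by 0.42 on the log2 scale (edgeR adjusted p = 0.00643). RAC2, mostly a GTPase of blood cells, rose from 12.4 ± 0.49 to 15.0 ± 1.26 CPM (SD, n = 3 each; log2 fold change 0.27, edgeR adjusted p = 0.0415), a call lost in 7 of 13 alternatives. RHOG, a Rac-related GTPase, had 67.9 CPM in shCTRL and 66.5 CPM in shCCN3 and did not pass (edgeR adjusted p = 0.841).

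The list of exchange factors, which load Rac with GTP, also holds ELMO1, ELMO2 and ELMO3, which encode partners of DOCK factors. Of 17 genes tested in this list, 7 passed (41.2%), beside 33.4% of all genes. Of these, 3 were higher and 4 lower, with ELMO1 among the lower. PREX1, a factor that responds to PIP3 and to G-protein beta-gamma subunits, had 97.0, 103 and 98.0 CPM in shCTRL and 18.3, 17.8 and 17.0 CPM in shCCN3. The log2 fold change was -2.49 (standard error 0.064, edgeR adjusted p = 4.22e-08). PREX1 thus showed the largest fall of the 66 pathway genes, and the genes around it on chromosome 20 had a median of 0.05. Over chromosome 20 as a whole the median was -0.12, with 29.7% of its 444 tested genes called lower, beside 17.3% of all genes. DOCK4, an atypical exchange factor of the DOCK family, had 6.08, 4.68 and 4.50 CPM in shCTRL and 0.958, 1.01 and 1.31 CPM in shCCN3. It fell by 2.22 on the log2 scale (edgeR adjusted p = 2.43e-05) on chromosome 7. TIAM2 went the other way, from 1.22, 1.16 and 0.820 CPM to 4.63, 2.50 and 3.85 CPM, a log2 fold change of 1.78 (standard error 0.253, edgeR adjusted p = 0.000624). The genes around TIAM2 on chromosome 6 had a median of 0.44. TRIO, a large exchange factor that also acts on RHOG, was the most abundant factor and rose from 159 ± 16.8 to 232 ± 44.1 CPM (SD, n = 3 each; log2 fold change 0.54, edgeR adjusted p = 0.0134), a call that was lost without shCCN3 replicate 1.

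The Rac GTPase-activating proteins return Rac to its inactive form. Of 10 tested, 5 passed and all 5 were lower in shCCN3 (ARHGAP22, ARHGAP24, CHN1, SRGAP3 and ABR), and each kept its call in all 13 alternatives. The shares over all genes were 33.4% called and 17.3% called lower. Of these 5 genes, SRGAP3 had the largest fall, from 6.71, 6.11 and 6.69 CPM to 3.41, 3.04 and 2.97 CPM (log2 fold change -1.05, edgeR adjusted p = 0.000113). ABR fell from 174 ± 8.04 to 116 ± 7.26 CPM (SD, n = 3 each; log2 fold change -0.58, edgeR adjusted p = 0.00018). RACGAP1, a part of the centralspindlin complex of dividing cells, had 159 and 172 CPM and did not pass (edgeR adjusted p = 0.211). None of the 5 genes lies on chromosome 7.

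The Arp2/3 complex receives the signal of the WAVE proteins, and 6 of its 10 subunit genes passed, 3 in each direction. That is 60.0%, beside 33.4% of all genes. ACTR2 and ACTR3, which encode the actin-related subunits, were higher, with log2 fold changes of 0.44 and 0.41 (edgeR adjusted p = 0.0112 and 0.00196). ARPC5 was higher by 0.17 (edgeR adjusted p = 0.0443), a call lost in 7 of 13 alternatives. ACTR3B, a second form of the ACTR3 subunit, fell from 7.48, 8.60 and 7.82 CPM to 3.41, 3.06 and 3.49 CPM (log2 fold change -1.26, edgeR adjusted p = 3.27e-05). ARPC1A (-0.78) and ARPC1B (-0.29) were lower as well, and these 3 lower genes all lie on chromosome 7. The ARPC1B call was lost in 4 of 13 alternatives. ARPC2, the most abundant subunit by CPM, had 381 ± 2.67 and 395 ± 15.7 CPM (SD, n = 3 each) and did not pass (edgeR adjusted p = 0.49). Without shCTRL replicate 2, 3 of the 10 passed, in a fit that called 4181 genes over all genes in place of 5825.

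Of the other nucleation-promoting factors and the WIP family, 3 of 8 passed (37.5%), beside 33.4% of all genes. Over all genes 17.3% were called lower, and all 3 of these genes were lower. They were CTTN, which holds branch points together, WASL on chromosome 7, which encodes N-WASP, and WIPF1, the partner that stabilises WASP proteins. The WASL call was lost in 4 of 13 alternatives. CTTN had 251 ± 5.91 CPM in shCTRL and 198 ± 8.09 CPM in shCCN3 (SD, n = 3 each; log2 fold change -0.34, edgeR adjusted p = 0.00165). WIPF1 fell by 0.66 on the log2 scale (edgeR adjusted p = 0.00021).

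Among the WAVE partners and elongation factors, 5 of 9 passed (55.6%), beside 33.4% of all genes. VASP and ABL2 were higher and BAIAP2, EVL and FMNL2 lower, all by less than 0.40 on the log2 scale. The FMNL2 groups overlapped, and its call was lost in 6 of 13 alternatives. Calls were lost in 5 for ABL2, 4 for VASP, 4 for BAIAP2 and 2 for EVL. VASP, which elongates filaments at the leading edge, had 151 ± 5.97 and 178 ± 9.01 CPM (SD, n = 3 each; log2 fold change 0.23, edgeR adjusted p = 0.0175). This list was the least steady. It had 0 genes passing without shCCN3 replicate 1, 1 without shCTRL replicate 2 and 2 without shCTRL replicate 3. It had 3 without shCCN3 replicate 3, 3 without shCTRL replicate 1 and 7 without shCCN3 replicate 2. Over all genes these fits called from 4181 to 7229 genes, in place of 5825. Of the branch inhibitors and disassembly factors, 2 of 7 passed (28.6%), beside 33.4% of all genes. PICK1, described as an inhibitor of Arp2/3, was lower (log2 fold change -0.74, edgeR adjusted p = 0.00113), and CFL1, which encodes the filament-severing cofilin, was higher (1427 ± 60.6 and 1737 ± 179 CPM, SD, n = 3 each; log2 fold change 0.28, edgeR adjusted p = 0.019). Without shCTRL replicate 1 or without shCTRL replicate 2, 1 of the 7 passed, and without shCCN3 replicate 2, 4 did. Those fits called 4824, 4181 and 7229 genes over all genes, in that order, in place of 5825.

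The tested genes whose log2 CPM followed that of CYRIA most closely over the 6 libraries were COL1A1, SLC1A7 and IFIT3, each with a Pearson r of 0.9998. COL1A1, a fibrillar collagen chain, had 36.1 ± 0.92 CPM in shCTRL and 97.3 ± 0.903 CPM in shCCN3 (SD, n = 3 each). IFIT3, an interferon-induced gene, had 55.5 ± 0.958 and 185 ± 2.32 CPM, and SLC1A7, a glutamate transporter, had 0.177 ± 0.0156 and 4.16 ± 0.254 CPM (SD, n = 3 each). The points form 2 clusters, shCTRL and shCCN3, so such an r describes a tight pair of groups and little else, and 328 of the other 17418 genes had an r above 0.99.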

How the data were processed

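RNA was sequenced from Hs578T cells in 6 libraries, 3 shCTRL and 3 shCCN3, prepared with a stranded mRNA kit. Per the labels and the submitters' processing notes, reads were demultiplexed with bcl2fastq 2.20.0, trimmed with Trimmomatic, aligned to GRCh38 with HISAT2 2.1.0 and assembled with StringTie 2.1.3d, and DESeq2 is also named. The annotation and strand setting are not given in the sources used here. The authors deposited raw read counts per gene with gene IDs and symbols. Library totals were 56159110 to 68393177 counts, and 3 counts correspond to 0.0435 to 0.054 CPM.

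Counts were fitted with edgeR 4.0.16 (R 4.3.3): filterByExpr by group, TMM factors, the quasi-likelihood test and p-values adjusted by Benjamini-Hochberg across the 17419 genes tested. Intervals of 95% used the fit's standard errors. The fit was also run on simulated counts, with independent noise per gene and far fewer changed genes than were called here. That run lacked the chromosome shifts and shared library offsets of these data, so it cannot show that the fit suits them. The members and gene lists were chosen with earlier results of these data known. The text names all members, every Rac GTPase and other WAVE subunit, each list gene called with at least a 2-fold change, the most abundant gene of each list and the 3 genes most like CYRIA. Other called genes were named after their values were seen. Exon and coding lengths came from GENCODE 29 and positions from RefSeq (GRCh38.p14). Gene IDs matched RefSeq for 44698 and GENCODE for 26557 of 46427 genes. Identity was taken from pairwise alignment of coding sequences. Alternatives were DESeq2 1.42.0, limma 3.58.1 (voom), other size factors and filters, the replicate block, each library left out and coding length.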

Additional observations from a re-analysis of the deposited data

How the results depend on the processing

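CYRIA, CYRIB and CYFIP2 kept log2 fold changes of 3.75, 0.40 and -0.75 under other size factors, other filters, DESeq2, limma-voom and the replicate block. Without shCCN3 replicate 2, 4 members passed in place of 3, NCKAP1 being added. That fit called 7229 genes over all genes in place of 5825, and nothing is read from the added member. With each library left out, genes called ranged from 4181 to 7229 and other pathway genes called from 20 to 40. Of the 31 pathway calls, 18 held in all 13 alternatives and 0 changed sign. Restricting the count to genes off chromosome 7, chosen after seeing the data, left 24. Same-numbered libraries did not pair (correlations of deviations 0.0891, -0.0256 and -0.0657), and of the shCCN3 libraries replicate 1 alone correlated best with its own number. With the replicate block, 4887 genes were called in place of 5825, 26 pathway genes in place of 31 and 6 of them higher in place of 10. Precision differed between members, with the widest interval for NCKAP1 (-0.09 to 0.43).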
